A study of Mus musculus with 9 samples.

Results

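The genes described are 50 mouse genes of ribosome production and of the MYC family. They comprise 4 genes of the MYC family and its partner, 5 of RNA polymerase I, 7 of the small nucleolar ribonucleoproteins (snoRNPs), 15 assembly factors of the small ribosomal subunit, 15 of the large subunit and 4 nucleolar proteins with several roles. They were picked by symbol from a table of 55450 genes. All 50 were found there, and all 50 were among the 19357 genes with enough counts to be tested.

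EYFP+ mammary cells were sorted by FACS and profiled by RNA-sequencing, with 3 libraries for each of 3 genotypes. Control mice carried lsl-EYFP and K8CreERT2, LATS1/2-KO mice carried LATS1/2f/f in addition, and LATS1/2-Sox9-KO mice carried LATS1/2f/f and Sox9f/f in addition. All mice were adult and nulliparous and received 2 mg of tamoxifen on 5 days in a row, and cells were taken 7 days after the last dose, so the controls share the Cre, the reporter and the drug. Cre is driven by the Krt8 promoter, which is active in luminal epithelial cells, and EYFP marks the cells in which Cre has acted together with their descendants. Nothing in the labels says how many mice gave a library, so the p-values measure the spread between these libraries only. Total counts were 44167762 to 47003587 in control, 50508666 to 61745346 in LATS1/2-KO and 55503365 to 61967651 in LATS1/2-Sox9-KO.

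Ribosomes are built in the nucleolus. RNA polymerase I transcribes the ribosomal DNA into a long precursor, snoRNPs modify and help to cut it, and a large set of assembly factors folds it onto ribosomal proteins to give the small and large subunits. The transcription factor MYC binds DNA as a dimer with MAX at the E-box, and genes for all of these steps are among its best known targets. Growing and dividing cells, such as those of the mammary epithelium in its phases of expansion, make more ribosomes than resting cells.

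The targeted genes were examined first as a check of the labels. Lats1 (ENSMUSG00000040021, chr10:7681214-7716460 on GRCm38, plus strand) measured 5672, 5929 and 5940.4 normalized counts in control, 2090.1, 1923 and 2336 in LATS1/2-KO and 2058, 1844 and 1709 in LATS1/2-Sox9-KO. It was lower in both deletion groups, with log2 fold changes of -1.47 ± 0.11 and -1.64 ± 0.11 (SE, adjusted p = 7.07e-06 and 2.80e-06). Lats2 (ENSMUSG00000021959, chr14:57689662-57758388, minus strand) did not fall. It measured 1039, 865 and 1219.7 in control, 1256, 1434 and 1723 in LATS1/2-KO and 1957, 1580.4 and 1239.7 in LATS1/2-Sox9-KO (log2 fold changes 0.50 ± 0.20 and 0.61 ± 0.20, adjusted p = 0.0571 and 0.0240). Sox9 (ENSMUSG00000000567, chr11:112782224-112787760, plus strand) measured 23313, 19948 and 21534 in control, 7205, 9506 and 12433 in LATS1/2-KO and 8812, 6756 and 6459.8 in LATS1/2-Sox9-KO. Sox9 was thus lower than control in both deletion groups, and the libraries of these groups overlapped (log2 difference -0.40 ± 0.19, adjusted p = 0.250). Gene counts cannot show whether single exons were deleted. The counts of Lats2 therefore neither bear out nor contradict the labels. Both deletion groups are named below by their labels only, LATS1/2-KO standing for the libraries so labelled, and LATS1/2-Sox9-KO likewise.

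Normalized counts here are counts divided by a TMM-scaled library size and brought to a common size. Adjusted p-values come from the quasi-likelihood test of edgeR with Benjamini-Hochberg adjustment over all 19357 genes, and a gene passed the test at an adjusted p of at most 0.05. In LATS1/2-KO, against control, 35 of the 50 genes rose, 2 fell and 13 did not pass the test. Among all genes tested, 28.7% rose and 27.1% fell. A rise of more than 2-fold that also passed the test was found for 17 of the 50, beside 17.1% of all genes, and a fall of that size for 1, beside 17.5% of all genes. The libraries of the groups did not overlap for 37 genes that were higher, beside 31.3% of all genes, and for 2 that were lower, beside 30.3%. The median log2 fold change of the 50 genes was 0.71, beside 0.04 for all genes.

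The libraries labelled LATS1/2-Sox9-KO had more such genes. Against control, 44 of the 50 rose, 2 fell and 4 did not pass, where 29.3% of all genes rose and 28.7% fell. More than 2-fold rises were found for 24 genes (17.8% of all genes) and a fall of that size for 1 (19.6% of all genes), and the median log2 fold change was 0.99, beside 0.01 for all genes. The groups did not overlap for 44 genes that were higher (34.9% of all genes) and 2 that were lower (33.8% of all genes). Both comparisons use the same 3 control libraries, so they are not independent of each other. A larger count of calls is not a test of the deletion groups against each other. That test, given below, called 1 of the 50 as higher in LATS1/2-Sox9-KO, beside 3.13% of all genes, and none as lower, beside 3.33%. As the cells were profiled in bulk, more cells with a high level and more RNA in each cell cannot be told apart.

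Summed over the 50 genes, normalized counts were 205903 ± 17433 in control (SD, n = 3), 361903 ± 32272 in LATS1/2-KO and 411262 ± 4600 in LATS1/2-Sox9-KO. Their share of all counts was 0.407%, 0.394% and 0.341% in the control libraries, 0.641%, 0.724% and 0.731% in LATS1/2-KO and 0.712%, 0.753% and 0.750% in LATS1/2-Sox9-KO. Every deletion library lay above every control library, and the 2 deletion groups overlapped in this share. Within groups the libraries were not level. Control replicate 3 was the lowest control library for 33 of the 50 genes, and LATS1/2-KO replicate 1 was the lowest of its group for 30.

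**Figure D1:**
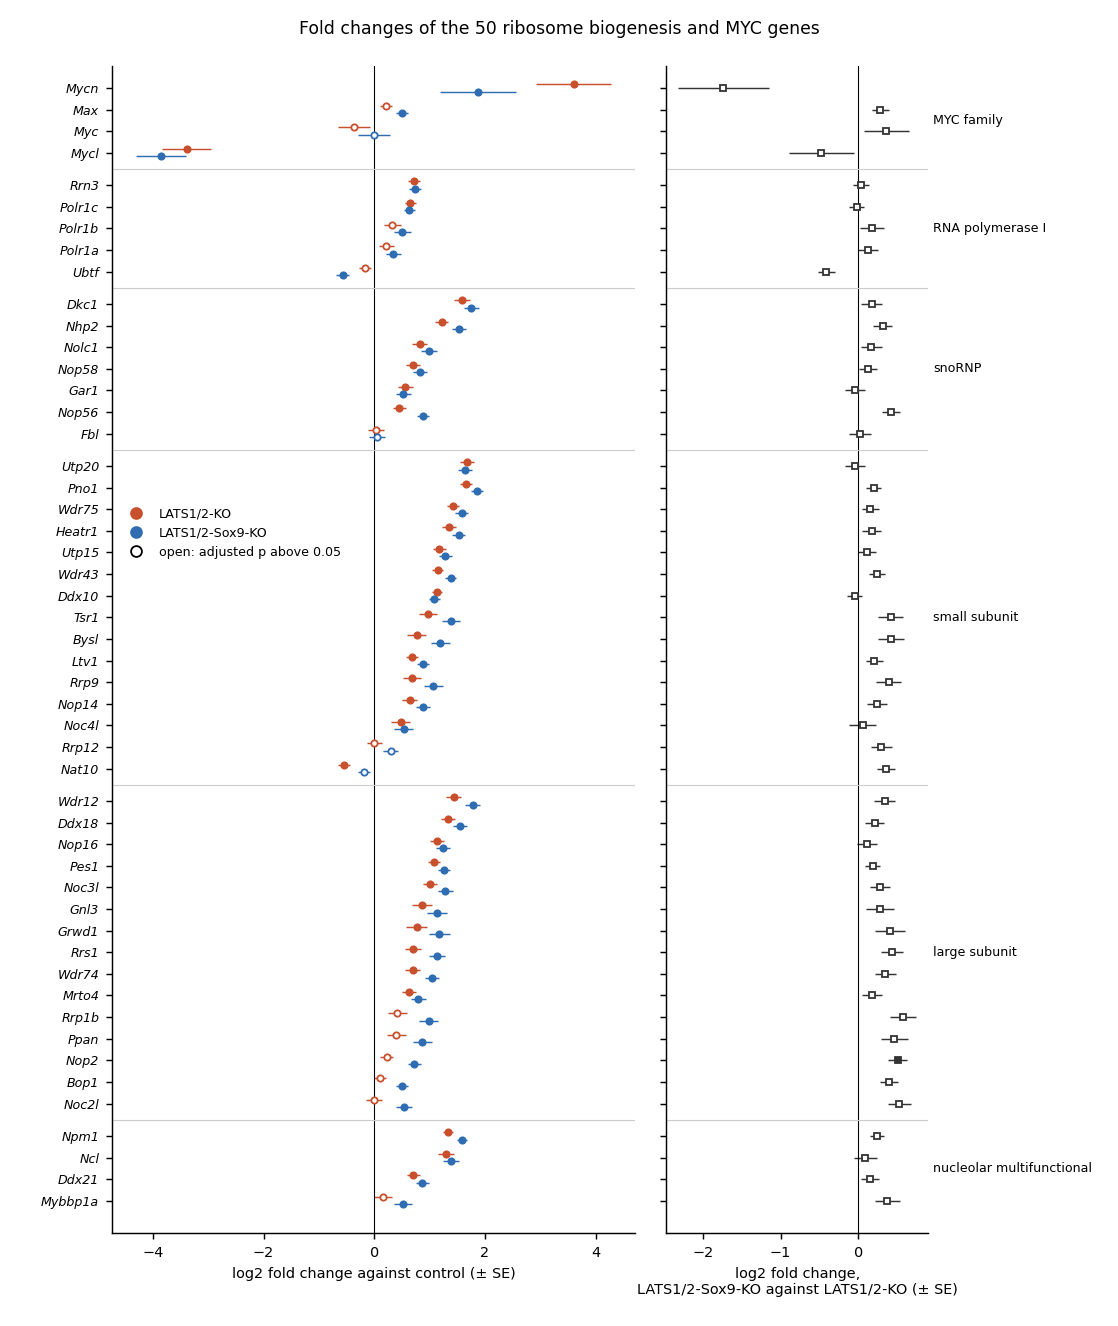
Log2 fold change with its SE for each of the 50 genes, grouped by role, against control (left, orange for LATS1/2-KO and blue for LATS1/2-Sox9-KO) and between the deletion groups (right); open symbols did not pass the test. Most points on the left lie right of 0, Mycl stands alone at -3.38 and -3.86, and only Nop2 is filled on the right.

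Expressed per kilobase of exon and corrected for library size, the levels of the 50 genes spanned a wide range. In control the highest was nucleolin (Ncl) at 74.6 ± 8.59, followed by Npm1 at 68.1 ± 4.56, Myc at 60.5 ± 2.79, Nhp2 at 55.03 ± 1.14 and Ddx21 at 45.7 ± 5.91 (SD, n = 3). Ncl and Npm1 did not differ beyond their spread, and neither did Npm1 and Myc, whose libraries overlapped. The median gene stood at 14.6 in control, 21.9 in LATS1/2-KO and 24.7 in LATS1/2-Sox9-KO on this scale. In LATS1/2-KO the order began with Ncl (183 ± 31.7), Npm1 (172.5 ± 2.12) and Nhp2 (128 ± 14.98), and Myc had moved from the third to the sixth place at 47.2 ± 10.02. In all 3 groups Mycn was the lowest of the 50. The kit does not mark strand, and exons of 19 of the 50 genes overlap a gene on the opposite strand, among them Dkc1, Nhp2, Pno1, Wdr12 and Noc2l. Exons of 5, Nop56, Nop58, Ppan, Gnl3 and Ncl, overlap a gene on the same strand, and 22 of the 50 have an overlap of either kind. Reads of such pairs cannot be told apart in the overlap.

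Myc itself, the best known member of its family, was not called in either comparison with control. Myc (ENSMUSG00000022346, chr15:61985391-61990374, plus strand) measured 9264, 8449 and 8825 normalized counts in control, 6109, 6019.8 and 8600.4 in LATS1/2-KO and 13997, 6642 and 5939.7 in LATS1/2-Sox9-KO. Replicate 1 of LATS1/2-Sox9-KO was above every other library, and 4 of the other 5 deletion libraries were below every control library. The log2 fold changes were -0.36 ± 0.29 (adjusted p = 0.324) and 0.00 ± 0.29 (adjusted p = 0.996). The second value rested on that single library, since without it the log2 fold change was -0.47 and passed the test as lower (adjusted p = 0.0359).

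Mycl, which encodes L-MYC, fell most of the 50 genes. Mycl (ENSMUSG00000028654, chr4:122995652-123002485, plus strand) measured 3027, 4991 and 4227 in control, 581, 195 and 399 in LATS1/2-KO and 441, 187 and 215 in LATS1/2-Sox9-KO. Every deletion library was below every control library, and the fall was 10.4-fold in LATS1/2-KO and 14.5-fold in LATS1/2-Sox9-KO (log2 fold changes -3.38 ± 0.44 and -3.86 ± 0.45, adjusted p = 0.000138 and 5.86e-05).

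Mycn, which encodes N-MYC, went the other way from almost nothing. Mycn (ENSMUSG00000037169, chr12:12936093-12941914, minus strand) had 2, 4 and 1 raw counts in control, so that its place among the tested genes rests on the deletion libraries. It measured 2.32, 4.54 and 1.24 normalized counts in control, 42.1, 25.4 and 36.5 in LATS1/2-KO and 16.7, 5.98 and 8.20 in LATS1/2-Sox9-KO. The groups did not overlap. Over the summed raw counts, 7 in control, 112 in LATS1/2-KO and 33 in LATS1/2-Sox9-KO, the ratio to control was 12.5 (95% exact interval for counting error alone, 5.85 to 31.7) and 3.78 (1.64 to 10.1). The edgeR test gave adjusted p = 0.00128 and 0.0381. Since the gene passed the filter only through the deletion libraries, these calls are a description and support nothing. Without Mycn, 34 and 43 of the other 49 genes rose. Mycn is also among the genes counted above as more than 2-fold higher and as higher without overlap, in both comparisons with control. The second call was lost without a filter on low counts (adjusted p = 0.0714), with the replicate block (0.0764), and without control replicate 1 or 3, LATS1/2-KO replicate 2 or 3, or LATS1/2-Sox9-KO replicate 1 or 3 (adjusted p up to 0.151). Even at its highest, Mycn was a small part of the family's counts.

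Max (ENSMUSG00000059436, chr12:76937269-76962201, minus strand), the dimer partner of all 3 MYC proteins, measured 4294, 3987 and 3705 in control, 4121, 5121 and 4692 in LATS1/2-KO and 5845, 5610.0 and 5519 in LATS1/2-Sox9-KO. It did not pass the test in LATS1/2-KO (log2 fold change 0.22 ± 0.11, adjusted p = 0.114) and rose in LATS1/2-Sox9-KO (0.50 ± 0.11, adjusted p = 0.00271), where every library was above every other.

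The proteins that compete with MYC for MAX, or that join it in the wider network, were listed separately as 9 genes. In LATS1/2-KO 1 of the 9 rose and 4 fell, where 28.7% of all genes rose and 27.1% fell. In LATS1/2-Sox9-KO 2 rose and 6 fell, where 29.3% rose and 28.7% fell. Mxd1, a repressor that pairs with MAX, measured 4231, 3757 and 3191 in control, 994, 663 and 869 in LATS1/2-KO and 1493, 981 and 999 in LATS1/2-Sox9-KO, with no overlap with control (log2 fold changes -2.15 ± 0.21 and -1.69 ± 0.21, adjusted p = 2.70e-05 and 8.62e-05). Mlxip, also called MondoA, a glucose-responsive factor that pairs with MLX, fell from 12926, 12344 and 8330.0 to 3415, 2905 and 3914 in LATS1/2-KO (log2 fold change -1.72 ± 0.20) and to 3476, 2556 and 2577 in LATS1/2-Sox9-KO. Mnt, another repressor that pairs with MAX, fell too (-1.49 ± 0.22 and -0.90 ± 0.22). Mxd3, the member of the MXD repressors known from dividing cells, rose from 37.1, 43.1 and 24.9 to 206, 196 and 218 in LATS1/2-KO (2.55 ± 0.32, adjusted p = 0.000111) and 113, 156 and 213 in LATS1/2-Sox9-KO (2.19 ± 0.32, adjusted p = 0.000236). The other gene that rose in LATS1/2-Sox9-KO was Mlx, the dimer partner of Mlxip, named after its values were seen (0.76 ± 0.13, adjusted p = 0.000813).

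Of 4 genes that control the stability of MYC protein, 1 rose and 2 fell in each comparison with control. A rise in 1 of 4 is close to the 28.7% and 29.3% of all genes that rose, and 27.1% and 28.7% of all genes fell. Skp2, an F-box protein of a ubiquitin ligase and also a cell cycle gene, measured 110.2, 61.2 and 78.4 in control, 755, 779 and 811 in LATS1/2-KO and 467, 718 and 680.4 in LATS1/2-Sox9-KO (log2 fold changes 3.23 ± 0.26 and 2.90 ± 0.26). The ubiquitin ligase Huwe1 fell (-0.92 ± 0.09 and -0.62 ± 0.09), as did the deubiquitinase Usp28 (-0.48 ± 0.14 and -0.46 ± 0.14). Both Usp28 calls were lost without a filter on low counts (adjusted p = 0.0614 and 0.105), and the second also without control replicate 1 or 3 or LATS1/2-Sox9-KO replicate 2 or 3 (adjusted p up to 0.0815). Fbxw7, the F-box protein best known for MYC turnover, did not pass the test (-0.07 ± 0.19 and -0.34 ± 0.19). Protein was not measured here.

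**Figure D2:**
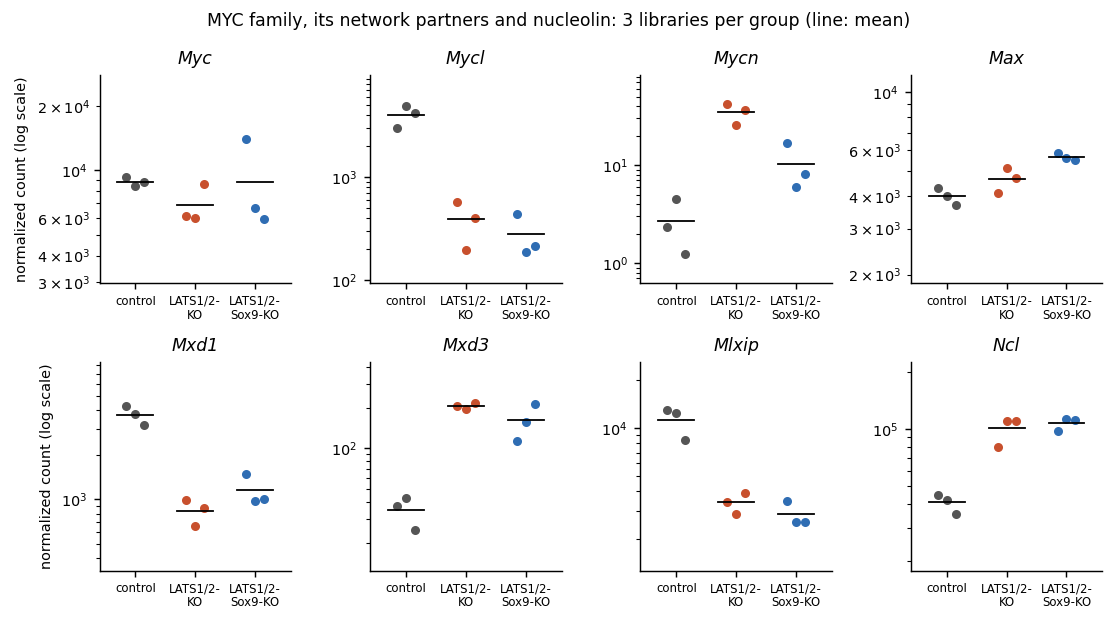
Normalized counts (log axis, a separate range in each panel) of the MYC family, 3 network partners and nucleolin in the 3 libraries of each group, with the group mean as a line. Mycl, Mxd1 and Mlxip lie below control in all 6 deletion libraries, Mycn, Mxd3 and Ncl lie above it, and Myc overlaps.

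The E-box bound by MYC and MAX was looked for near the start sites of the 50 genes, in promoters taken from RefSeq (GRCm38.p6) that run from 250 bases before to 50 bases after the start. Of the 50 genes, 44 had an entry, and Bop1, Fbl, Npm1, Rrp12, Rrs1 and Myc had none. The letters CACGTG, which read the same on both strands, were present in 11 of the 44 (25%), in 7.24% of the promoters of 27025 genes and in 9.55% of the 12104 of these genes that were tested. The related letters CACGCG, on either strand, were present in 14 of the 44 (31.8%), beside 9.36% of all and 16.4% of the tested genes. The letters CATGTG, another E-box variant, were present on either strand in 7 of the 44 (15.9%), beside 14.1% and 8.86%. The letters GGAATG, the core recognised by the TEAD factors of the Hippo pathway, were present on either strand in 2 of the 44 (4.55%), Polr1b and Rrn3, beside 14.6% and 12.4%. A match of letters is a description and not a binding site. The windows below show CACGTG in capitals, read 5′ to 3′ on the strand of the gene, for 7 of the 11 genes, which cover each role group that holds the letters. None of the 6 snoRNP genes with an entry does.

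Max, chr12:76962234-76962263, minus strand, 3 bases before the start: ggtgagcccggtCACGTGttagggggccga
Rrn3, chr16:13780472-13780501, plus strand, 215 bases before the start: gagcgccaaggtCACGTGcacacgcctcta
Rrn3, chr16:13780639-13780668, plus strand, 48 bases before the start: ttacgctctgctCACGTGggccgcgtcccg
Utp20, chr10:88826765-88826789, minus strand, 37 bases after the start: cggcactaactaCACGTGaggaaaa
Pno1, chr11:17211540-17211564, minus strand, 37 bases after the start: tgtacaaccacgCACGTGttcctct
Pes1, chr11:3963965-3963994, plus strand, 2 bases after the start: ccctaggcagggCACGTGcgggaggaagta
Nop2, chr6:125131811-125131840, plus strand, 60 bases before the start: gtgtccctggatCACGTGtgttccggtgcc
Mybbp1a, chr11:72441355-72441376, plus strand, 40 bases after the start: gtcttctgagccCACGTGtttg

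The medians of genes with and without CACGTG lay close together. The 11 genes that hold it had a median log2 fold change of 0.77 in LATS1/2-KO, and 8 of them rose, while the 33 that do not had a median of 0.70, and 25 of them rose. In LATS1/2-Sox9-KO the medians were 1.18 and 0.99, with 11 of 11 and 30 of 33 genes higher. No test of this difference was made. Among all genes, 28.7% rose in LATS1/2-KO and 29.3% in LATS1/2-Sox9-KO.

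The 5 genes of RNA polymerase I and its factors had a median log2 fold change of 0.33 in LATS1/2-KO, where 2 rose (beside 28.7% of all genes), and of 0.51 in LATS1/2-Sox9-KO, where 4 rose and 1 fell (beside 29.3% and 28.7%). Rrn3 (ENSMUSG00000022682, chr16:13780708-13814839, plus strand), the factor that brings the polymerase to its promoter, measured 2865, 2485 and 2622 in control, 4193, 4420.2 and 4442 in LATS1/2-KO and 3933, 4637 and 4787 in LATS1/2-Sox9-KO. Both deletion groups were above control in every library (0.71 ± 0.11 and 0.74 ± 0.11, adjusted p = 0.000366 and 0.000242). Polr1c (ENSMUSG00000067148, chr17:46243920-46248054, minus strand), a subunit shared with RNA polymerase III, rose by about the same amount, from 2684, 2922 and 2573 to 4384, 4495 and 4011 in LATS1/2-KO and 4257, 4275 and 4194 in LATS1/2-Sox9-KO (0.66 ± 0.10 and 0.64 ± 0.10, adjusted p = 0.000279 and 0.000292). The 2 largest subunits, Polr1a and Polr1b, had values of 0.22 ± 0.13 and 0.33 ± 0.15 in LATS1/2-KO, which did not pass, and of 0.34 ± 0.13 and 0.51 ± 0.15 in LATS1/2-Sox9-KO, which did (adjusted p = 0.0497 and 0.0175). The call of Polr1a was lost with RLE factors, total count scaling, DESeq2, at least 10 counts in every library and the replicate block (adjusted p = 0.0515 to 0.0732). It was also lost without control replicate 2 or 3, LATS1/2-KO replicate 2 or any 1 LATS1/2-Sox9-KO library (adjusted p up to 0.149).

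Ubtf (ENSMUSG00000020923, chr11:102304560-102319742, minus strand) encodes UBF, which binds along the active ribosomal DNA, and it moved against its group. It measured 9296, 7559 and 8757 in control, 7839.9, 7159 and 7908 in LATS1/2-KO and 6126, 5291 and 5816 in LATS1/2-Sox9-KO. Control and LATS1/2-KO overlapped (-0.16 ± 0.11, adjusted p = 0.237), and every LATS1/2-Sox9-KO library was below all others (-0.57 ± 0.11 against control, adjusted p = 0.00131). Between the deletion groups the difference was -0.41 ± 0.11 with adjusted p = 0.0547, just outside the threshold. It passed in 7 of 20 alternatives, named below, with adjusted p from 0.0144 (DESeq2) to 0.0476 (replicate block).

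Among 10 further genes of this polymerase and its promoter complex, 5 rose in LATS1/2-KO and 6 in LATS1/2-Sox9-KO, and none fell, beside 28.7% and 29.3% of all genes that rose and 27.1% and 28.7% that fell. The subunit Polr1e (540.5, 581 and 484 in control; 1297, 1172 and 1167 in LATS1/2-KO) and Taf1d, a subunit of the selectivity factor SL1 (3219, 3160.5 and 1859 in control; 5288, 6360.4 and 6834 in LATS1/2-KO), had the largest changes, at 1.18 ± 0.14 and 1.17 ± 0.20.

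The snoRNP proteins rose with 1 exception. In each comparison with control, 6 of the 7 passed the test and all of these were higher, with medians of 0.70 and 0.88. Among all genes, 28.7% rose in LATS1/2-KO and 29.3% in LATS1/2-Sox9-KO. Dkc1 (ENSMUSG00000031403, chrX:75095854-75109777, plus strand), the pseudouridine synthase of the box H/ACA particles and a part of telomerase, measured 1494, 1608 and 1124 in control, 3929, 4397 and 4352 in LATS1/2-KO and 4559, 4906 and 4800.2 in LATS1/2-Sox9-KO. This was a rise of 3.00-fold and 3.38-fold with no overlap (adjusted p = 1.27e-05 and 5.32e-06). Nhp2 (ENSMUSG00000001056, chr11:51619735-51623714, plus strand), a second core protein of the same particles, rose from 3387, 3468 and 3328 to 6893, 8693 and 8154 in LATS1/2-KO and 8550.5, 10516 and 10394 in LATS1/2-Sox9-KO (1.22 ± 0.12 and 1.53 ± 0.12, adjusted p = 2.60e-05 and 5.48e-06). Gar1, the third of these core proteins among the 50 genes, rose less (0.57 ± 0.13 and 0.53 ± 0.13).

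The box C/D particles, which methylate ribosomal RNA, did not move together. Nop58 and Nop56, their paired scaffold proteins, rose by 0.70 ± 0.12 and 0.46 ± 0.11 in LATS1/2-KO and by 0.83 ± 0.12 and 0.88 ± 0.11 in LATS1/2-Sox9-KO. Fbl (ENSMUSG00000046865, chr7:28169710-28179269, plus strand), the methyltransferase fibrillarin itself, had every deletion library within the control range. It measured 2152, 1859 and 1536 in control, 1658, 1904 and 2094 in LATS1/2-KO and 1967, 1898 and 1860.0 in LATS1/2-Sox9-KO (0.03 ± 0.14 and 0.05 ± 0.14, adjusted p = 0.883 and 0.803). Nolc1, a chaperone of both kinds of particle, rose by 0.82 ± 0.14 and 0.99 ± 0.14.

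**Figure D3:**
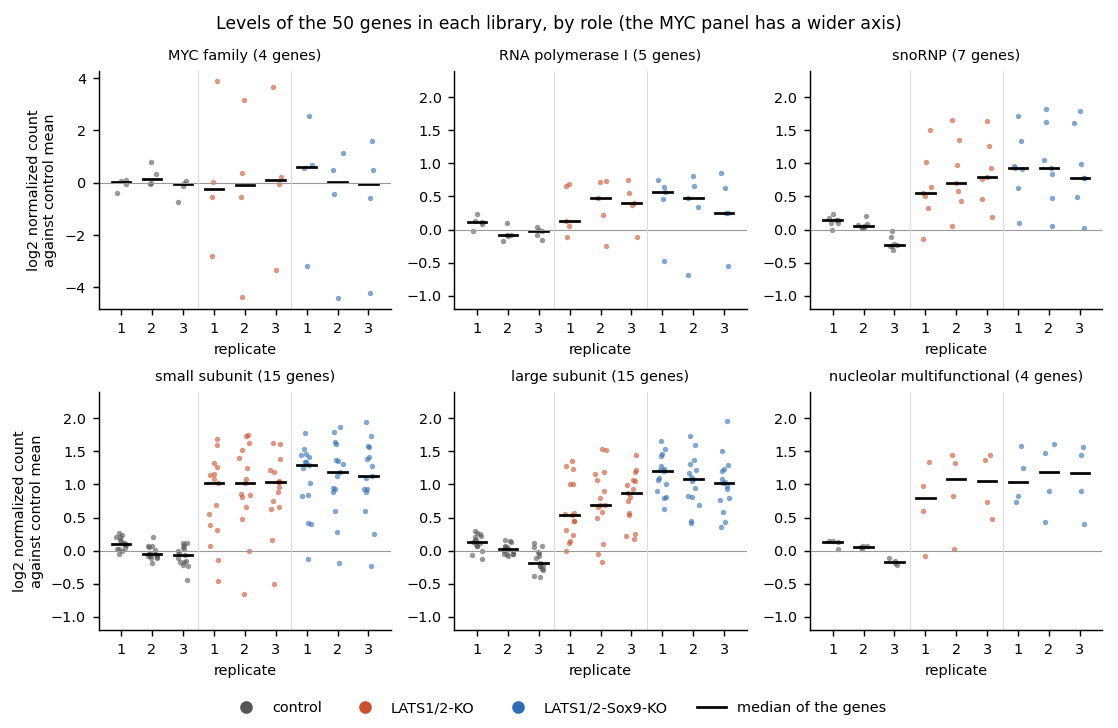
Log2 normalized count of each gene in each library against the mean of the control libraries, by role, with the median of the genes as a black line; the MYC family panel has a wider axis. In the 2 subunit panels and for the snoRNPs all 6 deletion libraries have medians above all 3 control libraries, and replicate 1 is the lowest of the LATS1/2-KO medians in every panel.

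Factors of the small subunit had the largest changes of any role group by median in LATS1/2-KO after the 4 multifunctional proteins. Of the 15, 13 rose and 1 fell in LATS1/2-KO (median 0.97), and 13 rose and none fell in LATS1/2-Sox9-KO (median 1.19). The shares of all genes were 28.7% higher and 27.1% lower in LATS1/2-KO, and 29.3% and 28.7% in LATS1/2-Sox9-KO. Utp20 (ENSMUSG00000004356, chr10:88746607-88826804, minus strand), a very large scaffold protein of the small subunit processome, measured 3559.6, 3253 and 3728 in control, 11261, 11685 and 10745 in LATS1/2-KO and 8902, 12205 and 11703 in LATS1/2-Sox9-KO. It rose 3.20-fold and 3.11-fold (log2 1.68 ± 0.13 and 1.64 ± 0.13, adjusted p = 7.15e-06 and 5.55e-06). Pno1 (ENSMUSG00000020116, chr11:17203198-17211568, minus strand), the partner of the nuclease NOB1 at the 3′ end of the maturing 18S RNA, measured 1786, 1661 and 1934 in control, 5431, 6036 and 5533 in LATS1/2-KO and 6122, 6503 and 6871 in LATS1/2-Sox9-KO. Its rise of 3.16-fold and 3.62-fold had the smallest adjusted p of the 50 genes in both comparisons (2.62e-06 and 9.32e-07).

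Among the small subunit factors that rose were proteins of the t-UTP complex, which joins the nascent precursor first and is needed for its transcription. They were Heatr1 (1.36 ± 0.12 in LATS1/2-KO and 1.53 ± 0.12 in LATS1/2-Sox9-KO), Wdr75 (1.43 ± 0.11 and 1.58 ± 0.11), Utp15 (1.18 ± 0.12 and 1.29 ± 0.12) and Wdr43 (1.15 ± 0.10 and 1.38 ± 0.11). The complex was not listed or tested as a group. The helicase Ddx10 rose by 1.14 ± 0.10 and 1.09 ± 0.10. Rrp9, a protein of the U3 snoRNP, and Nop14 and Noc4l, which form a pair, rose by 0.48 to 0.68 in LATS1/2-KO, and the late factors Tsr1, Bysl and Ltv1 rose by 0.69 to 0.97. Rrp12, which takes part in export, did not pass the test in either comparison (0.00 ± 0.14 and 0.30 ± 0.14, adjusted p = 0.996 and 0.0871).

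Nat10 (ENSMUSG00000027185, chr2:103721256-103761270, minus strand), which acetylates cytidines of the 18S RNA, fell in LATS1/2-KO. It measured 3009, 2943 and 2507 in control, 2048, 1790.3 and 1980.0 in LATS1/2-KO and 2584, 2462 and 2392 in LATS1/2-Sox9-KO. Control and LATS1/2-KO did not overlap (-0.54 ± 0.11, adjusted p = 0.00235). Control and LATS1/2-Sox9-KO did (-0.19 ± 0.11, adjusted p = 0.181), and the difference between the deletion groups did not pass the test (0.35 ± 0.11, adjusted p = 0.0926).

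Large subunit factors rose in 10 of 15 cases in LATS1/2-KO and in 15 of 15 in LATS1/2-Sox9-KO, with medians of 0.71 and 1.14, and none fell. In these comparisons 28.7% and 29.3% of all genes rose, and 27.1% and 28.7% fell. Wdr12 (ENSMUSG00000026019, chr1:60069785-60098645, minus strand) belongs to the PeBoW complex with Pes1 and Bop1, and it measured 764, 730.3 and 614 in control, 1785, 2026 and 1911 in LATS1/2-KO and 2195, 2316 and 2721 in LATS1/2-Sox9-KO. The groups did not overlap, and the rise was 2.71-fold and 3.43-fold (adjusted p = 1.84e-05 and 4.41e-06). The 3 proteins of this complex did not change by equal amounts, for Pes1 rose by 1.08 ± 0.10 and 1.26 ± 0.10, and Bop1 by 0.11 ± 0.11 (adjusted p = 0.431) and 0.50 ± 0.11 (adjusted p = 0.00304). The helicase Ddx18 (1.33 ± 0.13 and 1.55 ± 0.13), Nop16 (1.13 ± 0.13 and 1.24 ± 0.13) and Noc3l (1.01 ± 0.13 and 1.29 ± 0.13) were also above 2-fold in both.

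Between 1 and 2-fold in LATS1/2-KO were the GTPase nucleostemin (Gnl3), Grwd1, Rrs1, Wdr74 and Mrto4, at 0.63 to 0.87. In LATS1/2-Sox9-KO they rose by 0.80 to 1.18. Gnl3 measured 5613, 5184 and 3588 in control and 6914, 9899 and 9401 in LATS1/2-KO, so that control replicate 3 and LATS1/2-KO replicate 1 were both low in their groups.

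The 5 large subunit genes that did not pass in LATS1/2-KO were Bop1, Nop2, Ppan, Noc2l and Rrp1b, with values from 0.00 to 0.42, and each passed in LATS1/2-Sox9-KO. Noc2l (ENSMUSG00000095567, chr4:156236010-156247616, plus strand), the most abundant of the group per length in control, measured 5149, 4392 and 4378 in control, 4631, 4093 and 5219 in LATS1/2-KO and 7994, 6155 and 5957 in LATS1/2-Sox9-KO. The last group was above all other libraries (0.53 ± 0.14 against control, adjusted p = 0.00963), and the difference between the deletion groups was 0.53 ± 0.14 with adjusted p = 0.0590. That difference passed with DESeq2 (adjusted p = 0.0142), without a filter on low counts (0.0293), with at least 10 counts in every library (0.0491), and with the GC offset alone (0.0388) or with the replicate block (0.0422).

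Of the nucleolar proteins with several roles, 3 of 4 rose in LATS1/2-KO and 4 of 4 in LATS1/2-Sox9-KO. The shares of all genes that rose were 28.7% and 29.3%. Ncl (ENSMUSG00000026234, chr1:86344719-86359400, minus strand), nucleolin, is an abundant RNA binding protein of the nucleolus. It measured 44848, 42136 and 35682 in control, 80332, 110252 and 110668 in LATS1/2-KO and 97072, 112960 and 111000 in LATS1/2-Sox9-KO, a rise of 2.46-fold and 2.62-fold (adjusted p = 6.46e-05 and 3.43e-05). Npm1 (ENSMUSG00000057113, chr11:33152287-33163206, minus strand), nucleophosmin, a chaperone of ribosomal proteins and histones, measured 9978, 10299 and 9041 in control, 24602, 24532 and 25089.9 in LATS1/2-KO and 29081, 29656 and 28896 in LATS1/2-Sox9-KO. The 3 groups of Npm1 did not overlap at all, and its rise was 2.53-fold and 2.99-fold (adjusted p = 3.50e-06 and 1.06e-06). Npm1 has near-identical pseudogenes, and reads shared with them were left out of the counts, so its level is less certain than its change.

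The helicase Ddx21, which links transcription by RNA polymerases I and II, rose by 0.71 ± 0.12 and 0.87 ± 0.12. Mybbp1a, a nucleolar regulator of transcription, did not pass in LATS1/2-KO (0.16 ± 0.16, adjusted p = 0.441) and rose in LATS1/2-Sox9-KO (0.53 ± 0.16, adjusted p = 0.0180).

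The deletion groups, which Sox9 counts do not separate, were then compared with each other. Of the 50 genes, 1 passed the test as higher in LATS1/2-Sox9-KO, where 3.13% of all genes did, and none as lower, where 3.33% did. None passed with a change of more than 2-fold, beside 1.55% of all genes higher and 2.16% lower. At an unadjusted p under 0.05 the count was 20 of the 50, beside 22.6% of all genes. DESeq2 called 8 as higher, beside 7.2% of all genes, and 1, Ubtf, as lower, beside 7.13%. Without a test of the list, 43 of the 50 log2 differences were above 0, beside 48.3% of all genes, and the median was 0.21, beside -0.02. Every LATS1/2-Sox9-KO library was above every LATS1/2-KO library for 23 of the 50, beside 14.6% of all genes, and below for 2, beside 13.3%. Markers of cell types differed in the same comparison. The luminal keratins Krt8 and Krt18 were higher in LATS1/2-Sox9-KO (0.68 ± 0.12 and 0.82 ± 0.11), and Epcam was lower (-0.56 ± 0.10). Of the 4 basal markers, Acta2 (-1.34 ± 0.23) and Oxtr (-2.55 ± 0.59) were lower, and Krt5 and Krt14 did not pass. The tested immune, endothelial, fibroblast and adipocyte markers had edgeR adjusted p of 0.0965 or more. The part of these cells in the difference was not tested.

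Nop2 (ENSMUSG00000038279, chr6:125131909-125144753, plus strand), a methyltransferase that modifies the 28S RNA, was the gene that passed. It measured 2586, 2939 and 2979.5 in control, 3525, 3038 and 3365 in LATS1/2-KO and 5282, 4579.6 and 4230.0 in LATS1/2-Sox9-KO. The groups did not overlap, and the difference between the deletion groups was 1.42-fold (log2 0.51 ± 0.12, adjusted p = 0.0357). This call was lost without control replicate 2, LATS1/2-KO replicate 2 or 3, or LATS1/2-Sox9-KO replicate 1 or 2, with adjusted p from 0.0608 to 0.0959. It was also lost with total count scaling (adjusted p = 0.0689), in a fit of the 2 groups alone (0.0572), with the replicate block (0.0661) and with the block and the GC offset (0.0636). By role, the median difference was 0.35 for the large subunit, 0.20 for the small subunit, 0.20 for the multifunctional proteins and 0.17 for the snoRNPs. It was 0.03 for RNA polymerase I and -0.10 for the MYC family.

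The set was then placed beside the other genes of ribosome production. The counts of each list stand beside 28.7% of all genes higher and 27.1% lower in LATS1/2-KO, and 29.3% and 28.7% in LATS1/2-Sox9-KO. Of 40 further small subunit factors, 30 rose and 2 fell in LATS1/2-KO (median 0.67), and 38 rose and 1 fell in LATS1/2-Sox9-KO (median 0.87). Aatf, a nucleolar protein of the early small subunit particles, measured 1106, 1065 and 976 in control, 2747, 3285 and 3268 in LATS1/2-KO and 3492, 3824 and 3601 in LATS1/2-Sox9-KO (1.56 ± 0.11 and 1.79 ± 0.11), and Wdr3 rose by 1.44 ± 0.12 and 1.45 ± 0.12. Nol6 and the helicase Dhx37 fell in LATS1/2-KO (-0.78 ± 0.18 and -0.76 ± 0.18). Both calls were lost when counts were corrected for GC content.

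Of 40 further large subunit and snoRNP assembly factors, 27 rose and 7 fell in LATS1/2-KO (median 0.66), and 31 rose and 3 fell in LATS1/2-Sox9-KO (median 0.99). Rrp15 and Rrp8 rose most in LATS1/2-KO (1.76 ± 0.16 and 1.71 ± 0.13). Nop53, which brings the RNA exosome to the pre-60S particle, fell from 13358, 13669 and 10880.1 to 5531, 7129 and 7910.0 in LATS1/2-KO and 6565, 6017 and 5456 in LATS1/2-Sox9-KO (-0.88 ± 0.15 and -1.07 ± 0.15). Pelp1, of the rixosome, fell in LATS1/2-KO (-0.73 ± 0.20, adjusted p = 0.00950), a call that was also lost with the correction for GC content (-0.27, adjusted p = 0.151). Eif6, which keeps the 60S subunit from joining too early, was named after its values were seen. It measured 6979, 6891 and 6456 in control, 15114, 18054 and 16611 in LATS1/2-KO and 32612, 27440 and 23515 in LATS1/2-Sox9-KO, and it was higher in the third group than in the second (0.75 ± 0.13, adjusted p = 0.0134).

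The RNA exosome, which trims ribosomal RNA ends, had 9 of 13 genes higher and 1 lower in LATS1/2-KO and 12 higher and 1 lower in LATS1/2-Sox9-KO. The catalytic subunit Dis3 (1.57 ± 0.15) and Exosc8 (1.52 ± 0.16) rose most in LATS1/2-KO, and Exosc5 fell (-0.66 ± 0.13). RNA polymerase III, which makes 5S and transfer RNAs, had 9 of 15 genes higher and 3 lower in LATS1/2-KO and 9 higher and 4 lower in LATS1/2-Sox9-KO, and these falls (20% and 26.7%) are no more frequent than among all genes. Its subunit Polr3g measured 153, 149 and 129 in control, 459, 879 and 786 in LATS1/2-KO and 590.4, 823 and 924 in LATS1/2-Sox9-KO (2.30 ± 0.27 and 2.44 ± 0.27), and Polr3f rose by 0.94 ± 0.18 in LATS1/2-KO. Its factors Gtf3c1 (9033, 9103 and 9940.5 in control; 4489, 2237 and 3146 in LATS1/2-KO) and Brf1 fell by 1.51 and 0.83 on the log2 scale.

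For the ribosomal proteins themselves the counts and medians changed when 1 control library was left out and with the correction for GC content. Of 79 genes of cytosolic ribosomal proteins, 10 rose, 7 fell and 62 did not pass in LATS1/2-KO, and 15 rose, 5 fell and 59 did not pass in LATS1/2-Sox9-KO. Their medians were -0.01 and 0.01, and 28.7% and 29.3% of all genes rose in the same comparisons. Control replicate 3 stood apart, with a sum of 683219 normalized counts over the 79 genes beside 863185 and 853676 in the other control libraries and 795780 to 840865 in the deletion libraries. Without it, 7 rose and 18 fell in LATS1/2-KO (median -0.15), and 10 rose and 11 fell in LATS1/2-Sox9-KO (median -0.08). With counts corrected for GC content, 26 rose and 10 fell (median 0.07), and 25 rose and 12 fell (median 0.15). Rpl27 rose most in LATS1/2-KO (1045, 1072 and 677 in control, and 1682, 1994 and 1938; 1.01 ± 0.17), and Rpl35 rose by 0.61 ± 0.12. Rpl27a (3927, 3919 and 2907 in control, and 2149, 1852 and 1889.7; -0.87 ± 0.14) and Rpl15 (-0.76 ± 0.20) fell. Ribosomal protein genes have many processed pseudogenes, so reads that match several copies were left out and single values are uncertain.

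**Figure D4:**
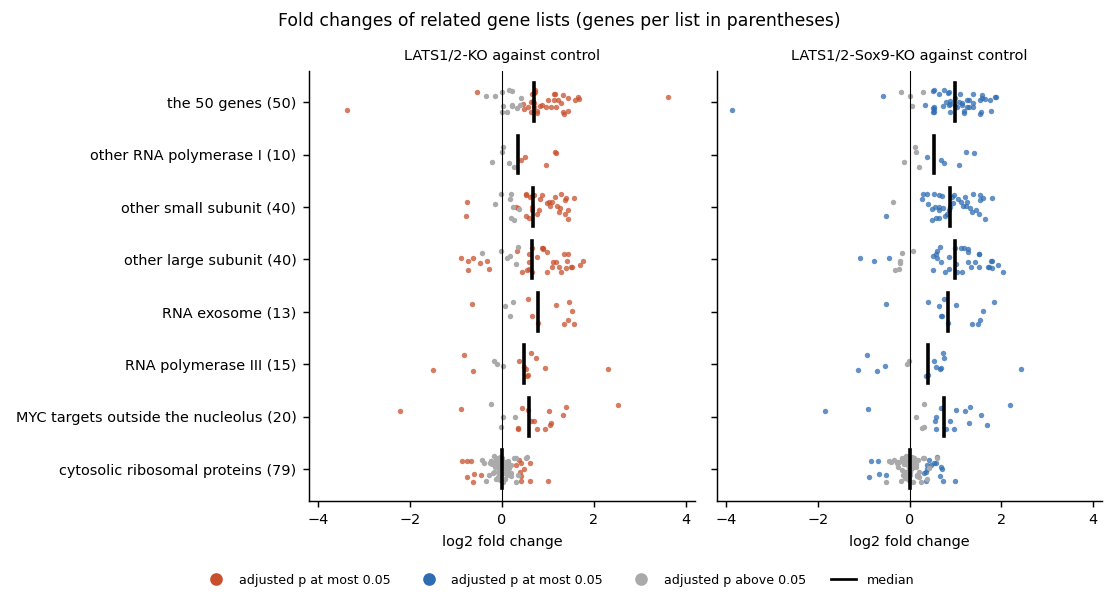
Log2 fold change of each gene in the 50-gene set and 7 related lists against control, in LATS1/2-KO (left) and LATS1/2-Sox9-KO (right), with grey points for genes that did not pass the test and a black line at the median. The lists of assembly and processing factors have medians of 0.35 to 0.99, and the 79 ribosomal protein genes have medians of -0.01 and 0.01, which become -0.15 and -0.08 without control replicate 3.

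Of 20 known MYC targets that act outside the nucleolus, 14 rose and 2 fell in each comparison with control, with medians of 0.60 and 0.74. Beside these, 28.7% of all genes rose and 27.1% fell in LATS1/2-KO, and 29.3% and 28.7% in LATS1/2-Sox9-KO. Ctps, which makes CTP, had the largest rise, from 2597, 2478 and 2899.9 to 14484, 16881 and 14797 in LATS1/2-KO and 11864, 11375 and 13263 in LATS1/2-Sox9-KO (2.53 ± 0.12 and 2.19 ± 0.11, adjusted p = 5.47e-07 and 6.87e-07). Ppat, the first enzyme of purine synthesis, rose by 1.39 ± 0.12 in LATS1/2-KO. Cad, which starts pyrimidine synthesis and lies upstream of Ctps, went the other way, from 9752, 11923 and 8813 to 1878, 1700.5 and 2958 in LATS1/2-KO and 3179, 2773 and 2567 in LATS1/2-Sox9-KO (-2.22 ± 0.21 and -1.84 ± 0.21). Impdh2, of guanine nucleotide synthesis, fell by 0.90 on the log2 scale in LATS1/2-KO.

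Of 7 host genes of snoRNAs, 3 rose in LATS1/2-KO, 4 rose in LATS1/2-Sox9-KO and none fell. Snhg5 (1.91 ± 0.28) and Snhg6 (1.66 ± 0.15) rose most in LATS1/2-KO. Of 9 genes of the p53 pathway, which responds to disturbed ribosome assembly among other stresses, 4 rose and 1 fell in LATS1/2-KO, and 5 rose and 1 fell in LATS1/2-Sox9-KO. Of all genes, 28.7% rose and 27.1% fell in the first comparison and 29.3% and 28.7% in the second, and counts from lists this short are given beside these shares as a description. Phlda3 (2.66 ± 0.37) and Mdm2 (0.93 ± 0.21) rose and Sesn2 (-1.46 ± 0.27) fell in LATS1/2-KO. Mdm2 measured 19965 in LATS1/2-KO replicate 1, and 11634 and 12109 in the other libraries of that group. Its log2 fold change in LATS1/2-Sox9-KO was 1.31. Between the deletion groups all 9 log2 differences of this list were above 0 (median 0.46), beside 48.3% of all genes, and none passed the test. A link between this list and the 50 genes was not tested.

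Genes of cell division moved in the same libraries. All 8 genes of a cell cycle list rose in both comparisons with control, beside 28.7% and 29.3% of all genes. Their medians were 2.82 and 3.04. Cyclin B1 (Ccnb1) went from 16.2, 65.8 and 24.9 to 1522, 2381 and 2278 in LATS1/2-KO and 1661, 2174 and 2390.1 in LATS1/2-Sox9-KO. Cdk1 rose by 4.67 ± 0.60 in LATS1/2-KO. The part of cell division in the levels of the 50 genes was not tested.

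Markers of cell types were read for the same reason. Their counts, here and in the next paragraph, stand beside 28.7% of all genes higher and 27.1% lower in LATS1/2-KO. The shares were 29.3% and 28.7% in LATS1/2-Sox9-KO. The luminal keratins Krt8 and Krt18 were abundant in every library, at 168814 to 216010 and 239706 to 257940 normalized counts in control, and rose in both deletion groups, while Epcam fell. Of 4 basal markers, 2 rose in LATS1/2-KO, and in LATS1/2-Sox9-KO 3 rose and 1 fell, with Krt14 going from 909, 501 and 606 to at least 117088 in every deletion library. Their summed level was 0.00517%, 0.00437% and 0.00341% of counts in control and 0.211% to 0.654% in the deletion libraries, where Krt14 alone made up 89.5% to 98.3% of the sum. Krt5 and Oxtr did not pass in LATS1/2-KO, and Oxtr was the gene that fell in LATS1/2-Sox9-KO.

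The 6 immune markers summed to 701 to 1118 normalized counts in control and 2089 to 4698 in the deletion libraries, with Csf1r the only gene of the list to pass the test and the most abundant in every deletion library, Lyz2 or Cd68 the most abundant in control, Ptprc at 10.9 to 166 and Cd3e at 0 in all 9 libraries. The 3 endothelial markers summed to 225 to 711 over all libraries, with Pecam1 the most abundant in all but LATS1/2-Sox9-KO replicates 1 and 2, where Kdr was, and 1 of them, Kdr, rose in both comparisons. The 4 fibroblast markers summed to 979 to 8860, highest in control replicate 3. Dcn was the most abundant in control and in LATS1/2-KO replicate 3 and Col1a1 in the other deletion libraries, and 2 of the 4 rose and 1 fell in LATS1/2-KO, and 1 rose and 2 fell in LATS1/2-Sox9-KO. The 2 adipocyte markers were at 0.928 to 319 in sum, and Adipoq, which was at 0 in control replicates 1 and 2, passed the test although its groups overlapped. The part of these cells in the results was not tested.

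GC content moved with the fold changes of all genes. The median log2 fold change in LATS1/2-KO was 0.40 for genes with 40 to 45% GC and -0.44 for those with 55 to 60%. The 50 genes had a median of 51.1% GC, beside 49.5% for all, and the small and large subunit factors stood at 47.0% and 54.2%. With counts corrected for GC content, 42 of the 50 genes rose and 2 fell in LATS1/2-KO, where 28% of all genes rose and 26.5% fell. In LATS1/2-Sox9-KO 45 rose and 2 fell, where 29.4% of all genes rose and 28.3% fell. The medians of the 50 genes were 0.82 and 1.05. Under this correction Nop2 and Noc2l passed the test in LATS1/2-KO as well (0.59 and 0.41).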

How the data were processed

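The authors aligned reads with STAR (2.6.0c) to mm10 and counted them per Ensembl gene with featureCounts (Subread 1.6.2). They kept uniquely aligned proper pairs, to which the paper adds "same strand". They deposited whole-number counts, 1 table for 9 libraries. FastQC (0.11.7) is also named in the submitters' processing notes. No normalization had been applied.

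Counts were tested with edgeR (4.0.16; limma 3.58.1, R 4.3.3). Genes were filtered by filterByExpr, which left 19357 of 55450, libraries were scaled by TMM, and 1 quasi-likelihood model with a term for each group was fitted to all 9 libraries. A gene passed at a Benjamini-Hochberg adjusted p of at most 0.05. The study's rule also asks for an absolute log2 fold change above 1. The SE is the log2 fold change divided by the square root of F. Levels per length used the summed exon length of GENCODE M21 (GRCm38), to which 55104 rows matched by gene ID. The code was also run on simulated data with the same spread for every gene, which is no test of the calls made here. Of 330 listed genes 329 were found, 3 of them under older symbols.

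The 50 genes and the other lists were chosen with earlier results of these data known. Values in every library are given for the MYC family, for genes that passed against their group, and for genes that passed between the deletion groups. They are also given for the gene with the largest change in each role group, and for that with the highest level per length pooled over all 9 libraries. By this pooled rank Polr1c, Pno1 and Noc2l were taken, although Ubtf and Ltv1 were higher in control and Pes1 in both deletion groups. In other lists, the rule was to name up to 2 genes with the largest changes in each direction in LATS1/2-KO. Mnt, Fbxw7, Mlx, Eif6, the targeted genes and the markers of cell types were named outside this rule.

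Alternatives were other scaling factors, DESeq2 (1.42.0), other filters on low counts, fits of only the groups compared, a block for the replicate number, an offset for GC content, and leaving out each library. With 3 libraries against 3, an exact two-sided permutation test of a single value cannot go below p = 0.1, so none was used. Replicates of every group differed by more than counting noise. Protein sequences were not used here.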

Additional observations from a re-analysis of the deposited data

How the results depend on the processing

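Against control, 34 to 42 of the 50 genes were higher and 2 (Mycl and Nat10) lower in LATS1/2-KO under the edgeR and DESeq2 alternatives other than the study's fold rule. The share of all genes that were higher in LATS1/2-KO was 17.2% to 31.4% under these alternatives. In LATS1/2-Sox9-KO 40 to 45 of the 50 were higher, beside 18.3% to 32.1% of all genes. Requiring more than 2-fold as well left 17 higher and 1 lower of the 50 and 3314 and 3391 of all genes in LATS1/2-KO, 24 and 1 of the 50 and 3449 higher of all genes in LATS1/2-Sox9-KO, and 0 higher of the 50 and 301 and 418 of all genes between the deletion groups. The medians moved with the GC offset to 0.82 and 1.05, and with the replicate block and GC offset to 0.83 in LATS1/2-KO. Leaving out 1 library gave medians of 0.62 to 0.78 in LATS1/2-KO, 0.89 to 1.06 in LATS1/2-Sox9-KO and 0.15 to 0.29 between the deletion groups.

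Between the deletion groups the count of the 50 genes that were higher was 0 with total count scaling (2.17% of all genes), 2 without the 100 most counted genes in TMM (3.19%), 8 with DESeq2 (7.2%), 4 without a filter (2.64%), 3 with at least 10 counts in every library (4.21%), 2 in a fit of the 2 groups alone (2.65%), 4 with the GC offset (3.52%) and 0 to 4 when 1 library was left out (0.77% to 5.01%). Neither gene called in the fit of the 2 groups alone is Nop2. Ubtf, 1 gene, passed as lower with upper-quartile factors, total count scaling, DESeq2, at least 10 counts in every library, the GC offset, the replicate block, and the block with the GC offset. Total count scaling moved the median of all genes from -0.02 to -0.12 and that of the 50 genes to 0.10. DESeq2 called 1311 genes as higher and 1298 as lower, and leaving out 1 library gave 155 to 1012 and 94 to 1032. Myc in LATS1/2-Sox9-KO against control ranged from -0.47, without LATS1/2-Sox9-KO replicate 1, to 0.24 when 1 library was left out. The cause of these shifts was not tested.

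The labels do not say whether same-numbered libraries belong together. Deviations of same-numbered libraries correlated at -0.07 to 0.17, and those of differently numbered libraries at -0.16 to 0.06. The value of 0.17 was between replicates 2 of the deletion groups, so these values do not settle whether libraries are paired. With the replicate block, 34 of the 50 genes were higher in LATS1/2-KO (27.4% of all genes) and 42 in LATS1/2-Sox9-KO (28.7%). Between the deletion groups 0 were higher (2.44% of all genes) and 1 was lower. Nop2 then had adjusted p = 0.0661 (log2 difference 0.50), and Mycn in LATS1/2-Sox9-KO had adjusted p = 0.0764 (1.79), both from edgeR. Depth limits chiefly Mycn, with 7 counts over the control libraries.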
